A study of Mus musculus with 48 samples.

Results

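A set of 10 genes of matrix proteolysis was followed in cultured mouse lung cells given e-cigarette vapour extract. They comprise 7 secreted or membrane-bound proteases (Mmp2, Mmp3, Mmp9, Mmp12, Mmp14, Adamts1 and Adamts4) and 3 tissue inhibitors (Timp1, Timp2 and Timp3), out of 20738 genes on the array. Members were chosen by gene symbol, and each gene was represented by its probe with the highest mean over all 48 arrays. Every one of the 10 has at least 1 probe.

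The cells were alveolar epithelial type II cells (AECII), which make surfactant in the lung alveolus, and pulmonary arterial smooth muscle cells (PASMC), all from C57Bl/6J mice. Each cell type was studied in 3 conditions of 8 arrays: extract from a liquid with 0 mg/ml nicotine (0mg), extract from a liquid with 18 mg/ml nicotine (18mg), and a control labelled room air (Ctrl). The extract (ECVE) was used at 15% for 24 h. AECII were grown with 10% serum and exposed 24 h after isolation, whereas PASMC were passaged once and grown with 15% serum, so cell type, time in culture and medium cannot be told apart. The series names 8 mice as the source of the cells, but the labels tie no array to a mouse. Arrays were therefore treated as separate samples, and the p-values measure the spread between arrays, whether that is between mice or technical.

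Matrix metalloproteinases are zinc-dependent enzymes that are made as inactive precursors and, once activated, cut collagens, elastin, laminins and other matrix proteins. ADAMTS enzymes are relatives with thrombospondin-type repeats that cut proteoglycans such as versican and aggrecan. Tissue inhibitors of metalloproteinases (TIMPs) block the active site of these enzymes, and in the lung the balance between proteases and inhibitors is studied in emphysema and in remodelling of the vessel wall. RNA levels say nothing of how much of a precursor is activated.

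Promoter sequences show how unlike these genes are at their start sites, and 4 are printed for that reason. RefSeq promoter windows (assembly GRCm38.p6, 250 bases before to 50 bases after the start, written 5′ to 3′ on the gene's strand) were available for 7 members: Mmp3, Mmp12, Mmp14, Adamts1, Timp1, Timp2 and Timp3. Capitals mark exact matches to the AP-1 element TGANTCA and to the TATA element TATAAA. The printed windows are chr9:7445572-7445871 on the plus strand for Mmp3, chr9:7347124-7347423 on the plus strand for the downstream of 2 Mmp12 starts, chr16:85803064-85803363 on the minus strand for Adamts1, and chrX:20869916-20870215 on the plus strand for Timp1.
Mmp3: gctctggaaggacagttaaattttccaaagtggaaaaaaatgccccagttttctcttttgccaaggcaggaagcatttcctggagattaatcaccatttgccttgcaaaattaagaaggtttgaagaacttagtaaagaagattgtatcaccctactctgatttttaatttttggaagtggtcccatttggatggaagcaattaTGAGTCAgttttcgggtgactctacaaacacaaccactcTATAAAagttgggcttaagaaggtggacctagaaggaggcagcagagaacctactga
Mmp12: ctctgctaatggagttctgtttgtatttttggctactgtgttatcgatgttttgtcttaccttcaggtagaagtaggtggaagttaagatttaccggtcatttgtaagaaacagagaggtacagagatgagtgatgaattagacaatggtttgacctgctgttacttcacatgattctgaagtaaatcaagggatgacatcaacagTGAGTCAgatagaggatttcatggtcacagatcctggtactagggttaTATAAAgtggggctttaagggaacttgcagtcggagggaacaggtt
Adamts1: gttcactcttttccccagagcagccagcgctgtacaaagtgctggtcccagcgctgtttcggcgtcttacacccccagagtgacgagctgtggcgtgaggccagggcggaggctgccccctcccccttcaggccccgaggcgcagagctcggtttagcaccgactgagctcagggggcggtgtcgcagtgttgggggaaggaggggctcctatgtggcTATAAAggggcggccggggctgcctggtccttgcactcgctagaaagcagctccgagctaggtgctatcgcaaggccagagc
Timp1: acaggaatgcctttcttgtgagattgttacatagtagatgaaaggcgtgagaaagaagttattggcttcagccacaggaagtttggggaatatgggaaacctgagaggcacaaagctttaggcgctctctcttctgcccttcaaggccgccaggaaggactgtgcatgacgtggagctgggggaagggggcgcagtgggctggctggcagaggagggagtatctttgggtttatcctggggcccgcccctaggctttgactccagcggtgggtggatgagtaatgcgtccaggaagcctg

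Mmp3 and the downstream Mmp12 start each held the letters TGAGTCA, beginning at position -46 and position -44 from the start. No other member's window held TGANTCA, which occurs on either strand in 7.81% of 32851 mouse promoter windows of the same length. TATAAA, found in 13.6% of windows, was present in the windows of Mmp3, the downstream Mmp12 start and Adamts1. It began at positions -7, 5 and -32 from the start in that order, so the matches are not placed alike. The Ets-type letters AGGAAG (35.4% of windows) occurred in Mmp3, the upstream Mmp12 start, Mmp14, Timp1 and Timp3. The GC box GGGCGG (35.7% of windows) was present in Mmp14, Adamts1 and all 3 inhibitor genes, and in no window of Mmp3 or Mmp12. Both strands were searched, and no searched motif contains another. Base composition split the same way: the Mmp3 window had 40.0% G and C and the Mmp12 windows 38.7% and 40.7%, against 55.0% in Timp1 to 68.7% in Timp2 among the rest. These matches describe the letters in the windows and do not show that a factor binds there.

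Values are log2 normalised intensities, a scale that ends at 15.89 and has a median of 2.98 on every array, and values at or below that median are called near background. Levels of different genes were not set against each other, because each comes from its own probe. Between arrays of 1 group the correlation ran from 0.978 to 0.986 for AECII and from 0.953 to 0.986 for PASMC. By group mean, all 10 alveolar type II markers were above the array median in AECII. In PASMC 7 were at 0mg, 8 at 18mg and 8 at Ctrl. The list means lay apart, at 9.87 to 10.67 in AECII against 4.02 to 6.85 in PASMC. AECII also carried all 4 mesothelial markers (list means 9.97 to 11.15 in AECII and 3.04 to 5.27 in PASMC) and 3 of 4 airway markers (6.85 to 7.54 in AECII and 2.11 to 6.32 in PASMC). The part of such cells in the members' levels was not tested. Smooth muscle markers averaged 7.39 to 8.38 in AECII and 9.87 to 12.00 in PASMC, and fibroblast markers 6.95 to 7.75 in AECII and 8.71 to 11.32 in PASMC. Macrophage markers averaged 5.42 to 7.46 in AECII and 4.64 to 7.84 in PASMC. Of the PASMC arrays, 4 at 0mg, 4 at 18mg and 3 at Ctrl had the surfactant gene Sftpc above 6. Another 3 PASMC arrays, 1 per condition, stood apart with fibroblast list means of 8.71 to 9.01, below the 10.09 to 11.32 of the other 21. In such bulk samples, fewer cells of a type and less RNA per cell cannot be told apart.

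**Figure D1:**
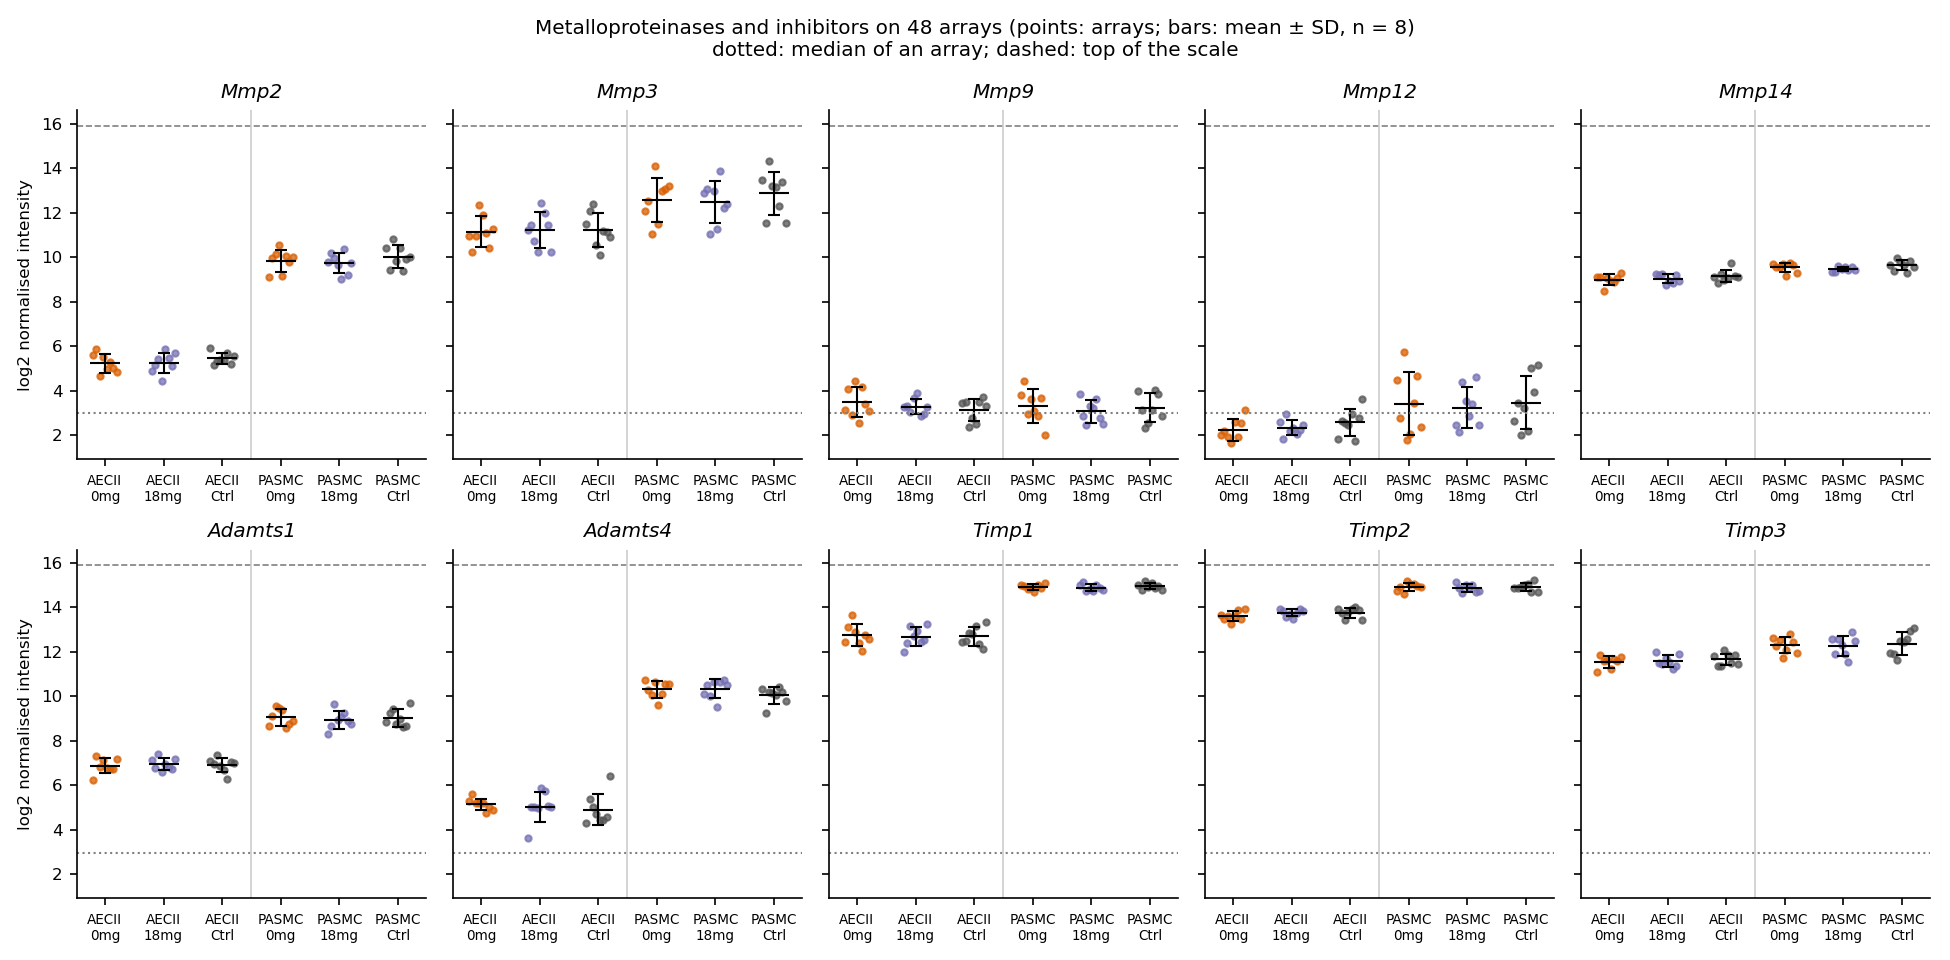
Log2 normalised intensity of the 10 genes on every array (points), with the mean and SD of each group of 8 arrays (black bars), for AECII and PASMC given extract from a 0 mg/ml or 18 mg/ml nicotine liquid or kept as control. The dotted line is the array median and the dashed line the top of the scale; Mmp2, Adamts1, Adamts4, Timp1 and Timp2 separate the cell types in all 3 conditions, and within a cell type the 3 conditions overlap for every gene.

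The gelatinase Mmp2, which cuts denatured collagen and type IV collagen of basement membranes, separated the cell types widely. In AECII its lowest, median and highest values were 4.66, 5.15 and 5.88 at 0mg, 4.44, 5.28 and 5.88 at 18mg, and 5.13, 5.39 and 5.92 at Ctrl. In PASMC they were 9.12, 9.97 and 10.55 at 0mg, 9.0, 9.76 and 10.39 at 18mg, and 9.36, 9.98 and 10.82 at Ctrl. The highest AECII array lay well below the lowest PASMC array in each condition. At Ctrl the difference, AECII minus PASMC, was -4.57 (95% interval -5.01 to -4.14, adjusted p = 8.21e-23 by limma), a level 23.8-fold lower in AECII. With extract it was -4.62 at 0mg and -4.49 at 18mg.

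Adamts4, an aggrecanase that also cuts versican, had the widest gap of the 10. Its lowest, median and highest values in AECII were 4.74, 5.20 and 5.60 at 0mg, 3.62, 5.04 and 5.88 at 18mg, and 4.31, 4.65 and 6.43 at Ctrl. In PASMC the values were 9.61, 10.43 and 10.73 at 0mg, 9.54, 10.53 and 10.75 at 18mg, and 9.25, 10.17 and 10.42 at Ctrl. No AECII array came near any PASMC array. The Ctrl difference was -5.13 (95% interval -5.63 to -4.64, adjusted p = 1.06e-22 by limma), and the differences with extract were -5.17 at 0mg and -5.30 at 18mg. A second Adamts4 probe was above the array median on 9 of 24 AECII arrays and on 24 of 24 PASMC arrays, so it gives no exact difference.

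Adamts1, which cuts versican and aggrecan, was also lower in AECII. Its mean at Ctrl was 6.92 ± 0.31 in AECII and 9.04 ± 0.39 in PASMC (SD, n = 8 arrays each). The ranges of the cell types did not overlap in any condition, with 6.26 to 7.42 over the 24 AECII arrays and 8.33 to 9.73 over the 24 PASMC arrays. Differences were -2.18 at 0mg, -1.99 at 18mg and -2.12 at Ctrl (adjusted p = 6.99e-15, 1.3e-13 and 1.87e-14 by limma).

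Mmp14, the membrane-bound protease that activates the Mmp2 precursor at the cell surface, was high in both cell types and differed little. It averaged 9.16 ± 0.26 in AECII and 9.63 ± 0.23 in PASMC at Ctrl (SD, n = 8 arrays each). Differences were -0.55 at 0mg, -0.43 at 18mg and -0.48 at Ctrl (adjusted p = 3.01e-05, 0.000748 and 0.000214 by limma). The ranges overlapped at 0mg and at Ctrl but not at 18mg, where AECII ran from 8.74 to 9.24 and PASMC from 9.34 to 9.60. Thus the membrane-bound activator and its substrate Mmp2 were both lower in AECII, by 0.48 and by 4.57 on the log2 scale at Ctrl.

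Mmp3 (stromelysin), which cuts proteoglycans, laminin and fibronectin and activates other metalloproteinase precursors, was high in both cell types and variable in both. Its lowest, median and highest values in AECII were 10.24, 11.02 and 12.32 at 0mg, 10.23, 11.31 and 12.45 at 18mg, and 10.07, 11.15 and 12.38 at Ctrl. In PASMC they were 11.03, 12.74 and 14.10 at 0mg, 11.06, 12.64 and 13.89 at 18mg, and 11.54, 13.18 and 14.30 at Ctrl. The cell types overlapped in every condition, although each AECII array lay below the PASMC mean of its condition. The difference was -1.42 at 0mg, -1.25 at 18mg and -1.65 at Ctrl (adjusted p = 0.00365, 0.0102 and 0.000811 by limma). Its SD within groups was 0.75 in AECII and 0.97 in PASMC, above that of 95.6% and 95.8% of the genes tested.

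The macrophage elastase gene Mmp12 was near background in AECII, where 2 of 24 arrays exceeded the array median, and uneven in PASMC, where 13 of 24 did. In AECII the lowest, median and highest values were 1.64, 2.09 and 3.12 at 0mg, 1.83, 2.26 and 2.95 at 18mg, and 1.73, 2.59 and 3.61 at Ctrl. In PASMC they were 1.79, 3.10 and 5.74 at 0mg, 2.16, 3.14 and 4.60 at 18mg, and 2.00, 3.34 and 5.16 at Ctrl. PASMC arrays therefore spanned from below to well above the array median in each condition. A second Mmp12 probe was above the array median on 2 of 24 AECII arrays and 3 of 24 PASMC arrays. Its difference over all conditions was -0.25, against -0.99 for the brighter one. The values, calls and correlations given for Mmp12 use the brighter one. Macrophage markers were above the array median in AECII as well, by group mean 11 of 12 at 0mg and 12 at 18mg and at Ctrl. With an AECII mean of 2.38, below the intensity filter of 2.73, Mmp12 entered the fit of both cell types only through PASMC, so its differences are set against a dim probe and describe the fit, not a measured AECII level. In that fit the cell type difference passed at 0mg (-1.18, adjusted p = 0.0209 by limma) and not at 18mg (-0.91, adjusted p = 0.0761) or Ctrl (-0.89, adjusted p = 0.0834). The 0mg call was lost without PASMC 0mg replicate 1 (-1.02, adjusted p = 0.0515), replicate 3 (-0.84, adjusted p = 0.0834) or replicate 7 (-1.0, adjusted p = 0.0566). Conversely, the Ctrl difference passed without PASMC Ctrl replicate 3 (-1.09, adjusted p = 0.0343), PASMC Ctrl replicate 5 (-1.07, adjusted p = 0.0408) or AECII Ctrl replicate 8 (-1.03, adjusted p = 0.0492), and the 18mg difference passed without PASMC 18mg replicate 2 (-1.06, adjusted p = 0.0434).

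Mmp9, the gelatinase of neutrophils, macrophages and stimulated epithelium, was dim in both cell types, with group means of 3.07 to 3.47 just above the array median. Values ran from 2.37 to 4.43 in AECII and from 2.00 to 4.45 in PASMC, with 17 of 24 AECII arrays and 14 of 24 PASMC arrays above the array median. The difference was 0.16 at 0mg, 0.21 at 18mg and -0.10 at Ctrl (adjusted p = 0.653, 0.551 and 0.795 by limma), with a 95% interval of -0.68 to 0.49 at Ctrl. All 10 Mmp9 probes had means between 2.23 and 3.25 over the 48 arrays, so the probe used is the brightest of 10 dim ones. Neutrophil markers were mixed: list means were 5.54 to 6.71 in AECII and 5.57 to 6.56 in PASMC, and S100a9 and Cxcr2 were at or below the array median in every group.

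The 3 inhibitors were bright in both cell types and lower in AECII. Timp1, a secreted inhibitor induced by cytokines and growth factors, had lowest, median and highest values of 12.03, 12.69 and 13.64 at 0mg, 12.01, 12.64 and 13.26 at 18mg, and 12.15, 12.65 and 13.34 at Ctrl in AECII. In PASMC they were 14.69, 14.92 and 15.09 at 0mg, 14.75, 14.85 and 15.13 at 18mg, and 14.79, 14.95 and 15.19 at Ctrl. The cell types did not overlap, and the PASMC arrays lay close together, from 14.69 to 15.19 over all conditions. Differences were -2.17 at 0mg, -2.21 at 18mg and -2.26 at Ctrl (adjusted p = 7.95e-16, 4.18e-16 and 2.07e-16 by limma).

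Timp2, which blocks metalloproteinases and is also needed for activation of the Mmp2 precursor by Mmp14, averaged 13.77 ± 0.22 in AECII and 14.91 ± 0.18 in PASMC at Ctrl (SD, n = 8 arrays each). Over all conditions it ran from 13.24 to 14.03 in AECII and from 14.62 to 15.22 in PASMC, without overlap. Differences were -1.32 at 0mg, -1.12 at 18mg and -1.14 at Ctrl (adjusted p = 6.82e-16, 1.45e-13 and 8.77e-14 by limma). A second Timp2 probe differed by -0.77 over all conditions, against -1.19 for the brighter one. In PASMC both Timp1 and Timp2 lay close to the end of the scale at 15.89, and compression of intensities there was not tested.

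Timp3, the inhibitor that binds to the matrix and also blocks ADAMTS enzymes, overlapped between the cell types. It averaged 11.66 ± 0.26 in AECII and 12.38 ± 0.51 in PASMC at Ctrl (SD, n = 8 arrays each). Differences were -0.74 at 0mg, -0.69 at 18mg and -0.72 at Ctrl (adjusted p = 0.000467, 0.00108 and 0.000638 by limma). Without the PASMC arrays that had Sftpc above 6, they were -0.57 at 0mg, -0.47 at 18mg and -0.42 at Ctrl (adjusted p = 0.00931, 0.0293 and 0.0347). The Ctrl value thus shrank by more than 1.5 times and still passed.

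**Figure D2:**
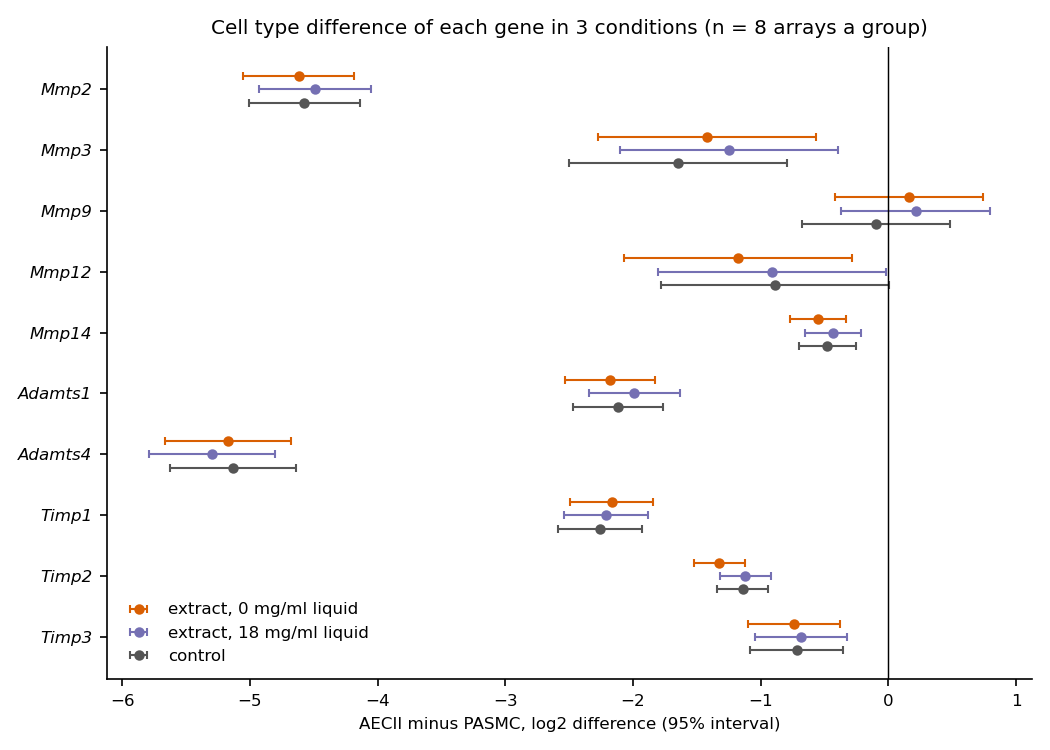
Difference between cell types, AECII minus PASMC, in log2 units with its 95% interval (limma, n = 8 arrays a group), for each gene under extract from a 0 mg/ml liquid, extract from an 18 mg/ml liquid, and control. Adamts4 and Mmp2 lie between -5.30 and -4.49, Timp1, Adamts1, Mmp3 and Timp2 between -2.26 and -1.12, and the intervals of Mmp9 cross 0 in all 3 conditions.

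Leaving aside Mmp12, which passed the intensity filter only through PASMC, 8 of 9 members were called lower in AECII in each condition (adjusted p under 0.05 by limma, n = 8 arrays a group), and none was called higher. With Mmp12 the count was 9 of 10 at 0mg and 8 of 10 at 18mg and at Ctrl. Over all 14775 genes tested, 30.9% were called lower at 0mg, 30.3% at 18mg and 31.3% at Ctrl, and 27.9%, 28.0% and 27.9% were called higher. The median difference of the 9 members was -1.42 at 0mg, -1.25 at 18mg and -1.65 at Ctrl, against -0.041, -0.033 and -0.044 over all genes tested. Ranges of the cell types lay apart for 5 members at 0mg, 6 at 18mg and 5 at Ctrl, whereas 26.7%, 27.3% and 28.0% of all genes tested had ranges apart. Ordering the 6 groups by their mean placed the 3 PASMC groups above the 3 AECII groups for every member but Mmp9. For 8 members the step between the cell types was the only 1 of 5 steps in that order larger than the SD of its neighbours, and for Mmp9 and Mmp12 no step was.

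Most relatives of these genes went the same way. Of 42 other metalloproteinases, inhibitors and activators on the array, 33 were bright enough to test. In AECII alone 29 were, so some of the 33 passed the intensity filter only through PASMC. The direction of those followed from the filter, and the counts given here include them. At Ctrl 23 of the 33 were called lower in AECII and 3 higher (median -1.22), with 23 and 4 at 0mg (median -1.26) and 23 and 3 at 18mg (median -1.39). Over all genes tested at Ctrl, 31.3% were called lower and 27.9% higher (median difference -0.044). The shares were 30.9% and 27.9% at 0mg, and 30.3% and 28.0% at 18mg. Led by size at Ctrl, the lower ones were Adamts14, a procollagen-processing protease (-3.89), the collagenase Mmp13 (-3.73) and Mmp19 (-3.33). The 3 that were higher were the membrane-type protease Mmp15 (4.74), the leukocyte-associated sheddase Adam8 (3.15) and the urokinase receptor Plaur (1.05). Matrix substrates were likewise lower in AECII in 15 of 16 genes at Ctrl (median -2.44), among them periostin, Postn (-5.97), the collagen Col5a1 (-3.56) and decorin, Dcn (-3.48). At 0mg 15 substrates were called lower and at 18mg 14. In AECII alone 15 of the 16 were bright enough to test. The remaining substrate passed the intensity filter only through PASMC, so its direction followed from the filter, and the counts include it. The laminin chain Lama5, a component of epithelial basement membranes, was the 1 substrate that was higher (2.69).

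Mmp3 and Mmp12 lie in a run of 10 neighbouring Mmp genes on chromosome 9 of GRCm38.p6, and the run was mixed in level. In gene order it holds Mmp13, Mmp12, Mmp1b, Mmp3, Mmp1a, Mmp10, Mmp8, Mmp27, Mmp20 and Mmp7. Mmp13, Mmp3, Mmp10 and Mmp8 were above the array median on all 24 arrays of both cell types. Near background were Mmp20 and Mmp7, each above the median on 4 AECII arrays and 2 PASMC arrays. Mmp13, Mmp10, Mmp8 and Mmp3 were called lower in AECII in all 3 conditions, by -3.73, -2.89, -2.74 and -1.65 at Ctrl (limma, adjusted p under 0.05), where 30.9% of all genes tested at 0mg, 30.3% at 18mg and 31.3% at Ctrl were called lower. Mmp1b was above the array median on 6 of 24 AECII arrays and 22 of 24 PASMC arrays, and Mmp27 on 12 and 20. Mmp1a, Mmp1b and Mmp27 were added to this description after the values were seen.

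**Figure D3:**
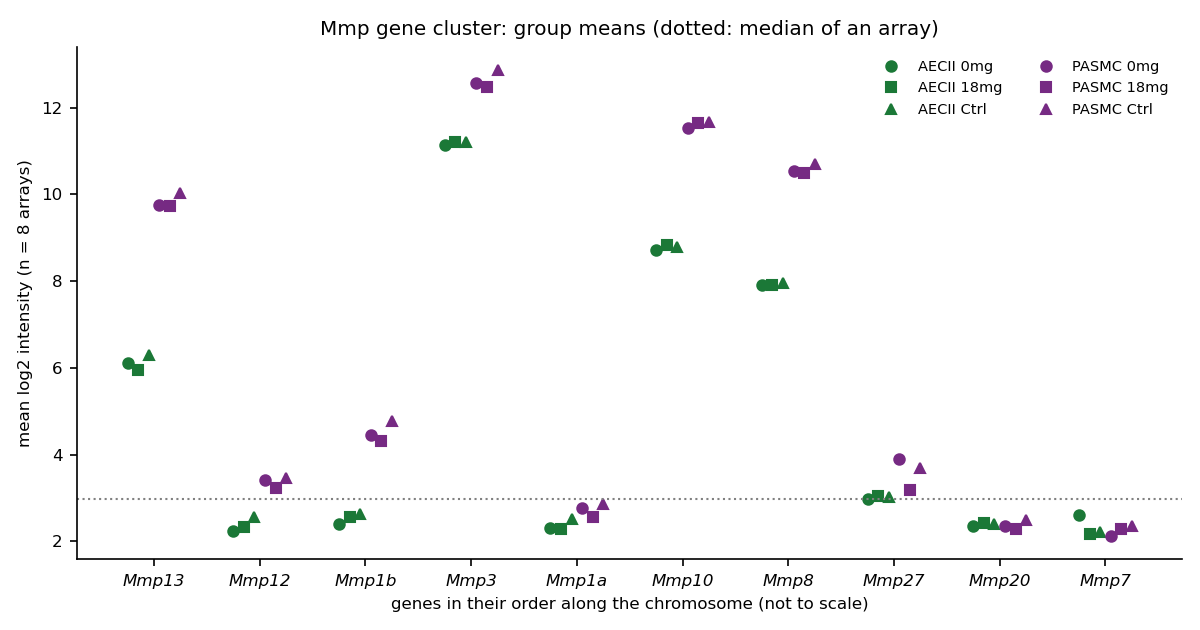
Mean log2 normalised intensity (n = 8 arrays a group) of the 10 Mmp genes that neighbour each other on chromosome 9, in gene order with equal spacing, for AECII (green) and PASMC (purple) in 3 conditions. The 4 genes Mmp13, Mmp3, Mmp10 and Mmp8 are above the array median (dotted) in all groups, with AECII below PASMC, Mmp1b and Mmp27 lie above the median in PASMC and near or below it in AECII, and Mmp1a, Mmp20 and Mmp7 lie below it in all groups; heights of different genes come from different probes and are not compared.

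Exposure to the extract was the question behind the 3 conditions, and no member passed the test in it. In AECII 9 members were tested, since Mmp12 was below the intensity filter, and in PASMC all 10. No member was called in any of the 6 treatment comparisons (adjusted p of 0.999 to 1 by limma), and none had an unadjusted p under 0.05. Over all genes, 0 of 14477 (0%) were called in each AECII comparison, and 4 of 14545 (0.0275%, all lower) in PASMC at 18mg against Ctrl, with 0 in the other PASMC comparisons. At an unadjusted p under 0.05 the shares of all genes were 3.32% at 0mg and 2.36% at 18mg against Ctrl in AECII, and 2.76% and 4.05% in PASMC. Between the extracts, 18mg against 0mg, they were 3.09% in AECII and 1.94% in PASMC.

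The intervals, from a fit that treats arrays as separate samples, bound the change in the measured intensity of each member. If arrays of different conditions share mice, a fit within mice could give tighter intervals and smaller p-values; the labels give no key for one, and it was not run. For Timp1 in PASMC the difference from Ctrl was -0.045 at 0mg (95% interval -0.21 to 0.12) and -0.065 at 18mg (95% interval -0.23 to 0.10). Timp2 in PASMC was as tightly bounded, at 0.025 (-0.17 to 0.22) for 0mg and -0.028 (-0.23 to 0.17) for 18mg. Mmp3 was the opposite case: in PASMC its differences were -0.30 (-1.26 to 0.66) at 0mg and -0.40 (-1.36 to 0.56) at 18mg, and in AECII -0.071 (-0.81 to 0.67) and 0.0034 (-0.74 to 0.74). A change of 1.5-fold in the intensity of Timp1 or Timp2 of PASMC thus lies outside the intervals, whereas a change of 2-fold in Mmp3 of PASMC lies within them at the lower end. Timp1 and Timp2 lay close to the end of the scale in PASMC. Compression there was not tested, so their tight intervals need not bound the change in RNA. Mmp12 in PASMC was looser still, with -0.043 (-1.22 to 1.13) at 0mg and -0.22 (-1.40 to 0.96) at 18mg.

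The smallest p of any member against Ctrl belonged to Mmp14 in PASMC at 18mg. Its lowest, median and highest values were 9.34, 9.45 and 9.60 at 18mg, 9.13, 9.60 and 9.74 at 0mg, and 9.29, 9.64 and 9.96 at Ctrl. All 8 arrays at 18mg lay below the Ctrl mean, while the ranges overlapped. The difference from Ctrl was -0.17 (95% interval -0.38 to 0.042, adjusted p = 1 by limma). Adamts4 in PASMC was 0.27 above Ctrl at 0mg and 0.29 above it at 18mg (adjusted p = 1 by limma for both), with 7 of 8 and 6 of 8 arrays above the Ctrl mean.

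The remaining members moved by less in most cases. Mmp2 differed from Ctrl by -0.23 at 0mg and -0.20 at 18mg in AECII, and by -0.19 and -0.28 in PASMC. Mmp9 differed by 0.34 and 0.15 in AECII and by 0.076 and -0.16 in PASMC, Adamts1 by -0.044 and 0.040 in AECII and by 0.021 and -0.089 in PASMC, and Timp3 by -0.099 and -0.063 in AECII and by -0.078 and -0.095 in PASMC. All of these intervals include 0, and both extracts share the Ctrl arrays. Set directly against each other, 18mg minus 0mg, the extracts differed by -0.19 (Mmp9) to 0.15 (Timp2) in AECII and by -0.24 (Mmp9) to 0.023 (Adamts4) in PASMC. The response of AECII was not distinguishable from that of PASMC for any member tested in both: the difference of the 2 responses was called for 0 of 14775 genes (0%) at 0mg and at 18mg (2.66% and 2.59% at an unadjusted p under 0.05 by limma), and ranged over the 9 members other than Mmp12 from -0.19 (Timp2) to 0.26 (Mmp9) at 0mg and from -0.16 (Adamts4) to 0.40 (Mmp3) at 18mg.

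**Figure D4:**
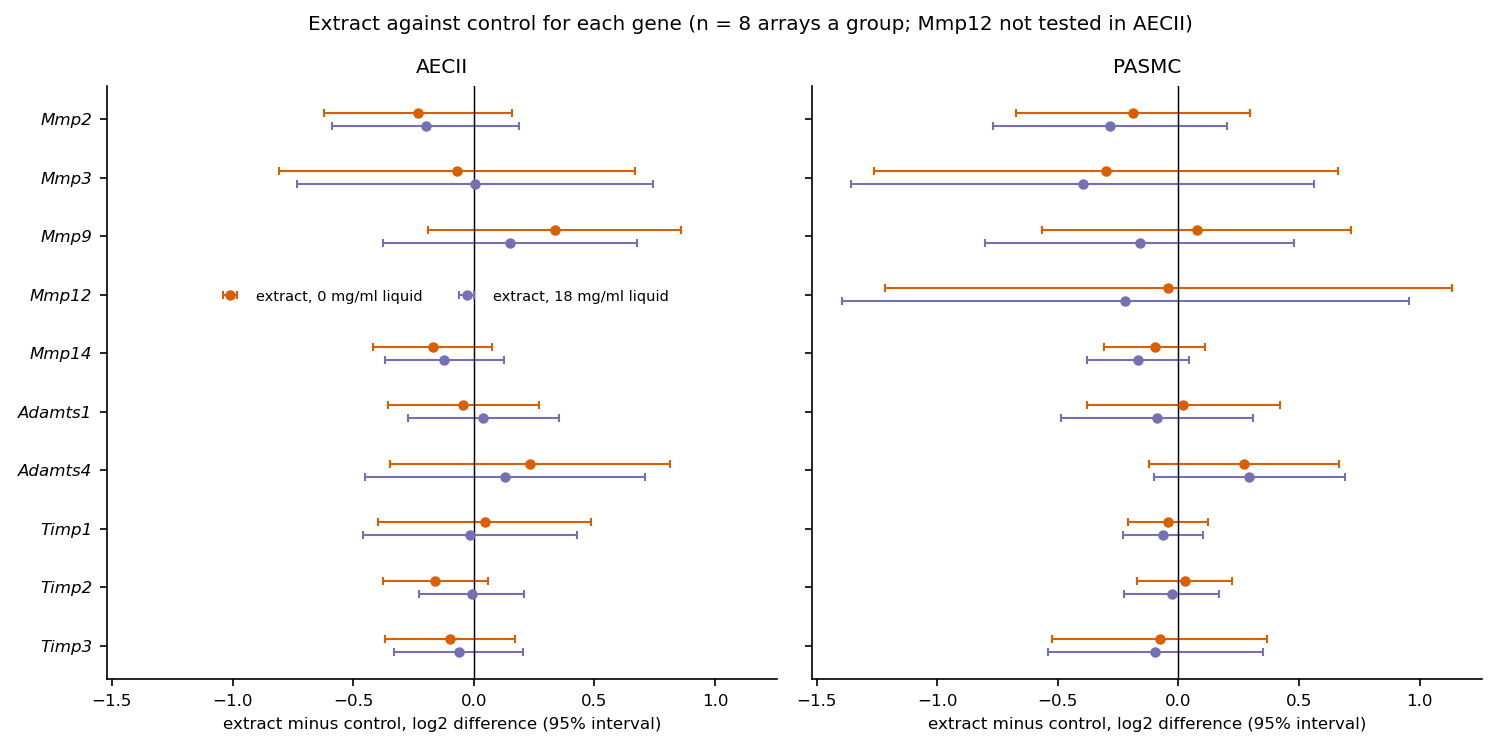
Difference of each extract from control in log2 units with its 95% interval (limma, n = 8 arrays a group), in AECII (left) and PASMC (right), for extract from a 0 mg/ml and an 18 mg/ml nicotine liquid. Every interval includes 0; Timp1 and Timp2 in PASMC have the tightest intervals and Mmp12 and Mmp3 in PASMC the widest.

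No relative or matrix substrate was called with extract either. Of 29 relatives tested in AECII and 34 in PASMC, none passed against Ctrl (adjusted p under 0.05 by limma), beside the same 0% to 0.0275% of all genes. The smallest unadjusted p belonged to Adamts7, a protease that cuts cartilage oligomeric matrix protein, in PASMC, where it was 0.53 above Ctrl at 0mg and 0.43 above it at 18mg (adjusted p = 1 by limma for both). Adamts6 in PASMC was 0.61 above Ctrl at 18mg (adjusted p = 1 by limma). Matrix substrates had median differences of -0.049 at 0mg and -0.0017 at 18mg in AECII, and of 0.079 and 0.031 in PASMC.

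The SD within groups exceeded the difference of either extract from Ctrl for every member in both cell types. For some members the correlations with cell type markers were large, though none passed after adjustment. In PASMC, Mmp2 was lower on arrays with a higher mean of 8 smooth muscle markers: Pearson's r within a condition of 8 arrays was -0.92 at 0mg, -0.92 at 18mg and -0.96 at Ctrl, and Spearman's rho -0.86, -0.86 and -0.93. Leaving out the 2 arrays farthest from the median gave r of -0.81, -0.90 and -0.90. The adjusted p was 0.141, 0.141 and 0.0622 (exact permutation, two-sided, Benjamini-Hochberg over 228 relations), so the relation did not pass in any condition. With all 24 arrays centred by group r was -0.93, and -0.91 without the 3 arrays of low fibroblast markers, given without a p because arrays of different conditions may share mice. Fibroblast markers ran the other way: their r with Mmp2 was 0.82 at 0mg, 0.81 at 18mg and 0.74 at Ctrl (rho 0.64, 0.62 and 0.86), and 0.68, 0.43 and 0.72 without the 2 farthest arrays. These did not pass either (adjusted p = 0.158, 0.158 and 0.254 by exact permutation), and the part of fibroblast-like cells was not tested.

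With the smooth muscle markers, Mmp3 ran the same way in both cell types. Within a condition, its r with the smooth muscle markers was -0.84 at 0mg, -0.84 at 18mg and -0.70 at Ctrl in AECII (rho -0.90, -0.76 and -0.76), and -0.76, -0.69 and -0.83 in PASMC (rho -0.67, -0.67 and -0.83). Without the 2 farthest arrays r ranged from -0.90 to -0.77 in AECII and from -0.83 to -0.64 in PASMC. Adjusted p-values were 0.163 to 0.327 in AECII and 0.172 to 0.327 in PASMC (exact permutation, over the same 228 relations). With the fibroblast markers, Mmp3 in PASMC had an r of 0.72 at 0mg, 0.72 at 18mg and 0.73 at Ctrl (rho 0.76, 0.69 and 0.67), and 0.66, 0.45 and 0.48 without the 2 farthest arrays (adjusted p = 0.298, 0.295 and 0.254 by exact permutation). In AECII Mmp3 did not follow these markers evenly. At 18mg the array with the highest fibroblast mean (7.75) had the lowest Mmp3 (10.23). At Ctrl the array lowest in Mmp3 (10.07) had a fibroblast mean of 7.58, above the median of 7.50. At 0mg and at Ctrl the array highest in Mmp3 was also highest in fibroblast mean.

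Mmp12 in PASMC was higher on arrays with higher macrophage markers, whose list means ran from 4.64 to 7.77 at 0mg, 4.70 to 7.84 at 18mg and 4.77 to 7.76 at Ctrl. Of the 12 markers, 11 at 0mg, 10 at 18mg and 12 at Ctrl had a mean above the array median, the exceptions being Ptprc at 0mg and Cd68 and Ptprc at 18mg. The r was 0.86 at 0mg, 0.73 at 18mg and 0.88 at Ctrl (rho 0.79, 0.69 and 0.83), and 0.96, 0.46 and 0.70 without the 2 farthest arrays. The adjusted p was 0.158, 0.298 and 0.158 (exact permutation). Timp3 in PASMC had an r of 0.70, 0.77 and 0.70 with the same markers (rho 0.69, 0.67 and 0.74, adjusted p = 0.327, 0.287 and 0.327 by exact permutation). At Ctrl the PASMC array highest in both Mmp12 (5.16) and Timp3 (13.06) also had the highest alveolar type II mean (6.66). At 0mg and 18mg the arrays highest in these genes were not the highest in that mean. Whether Mmp12 or Timp3 follows macrophage markers in particular was not tested. In AECII, where Timp1 varied more than in PASMC, its r with the macrophage markers was 0.86 at 0mg, 0.74 at 18mg and 0.83 at Ctrl (rho 0.69, 0.71 and 0.74), and 0.43, 0.33 and 0.56 without the 2 farthest arrays (adjusted p = 0.158, 0.298 and 0.158 by exact permutation). This was not particular to macrophage markers. In each condition the AECII array highest in Timp1 also had the highest smooth muscle mean (8.28 at 0mg, 8.37 at 18mg and 8.38 at Ctrl). The part of other cells in these levels was not tested.

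None of the 228 relations of a member with a marker list and none of the 243 between 2 members passed after adjustment. Adamts4 in PASMC shows why single arrays matter here. Over all 24 arrays its r with the fibroblast markers was 0.72, and over the 21 without the low-fibroblast arrays it was 0.028.

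**Figure D5:**
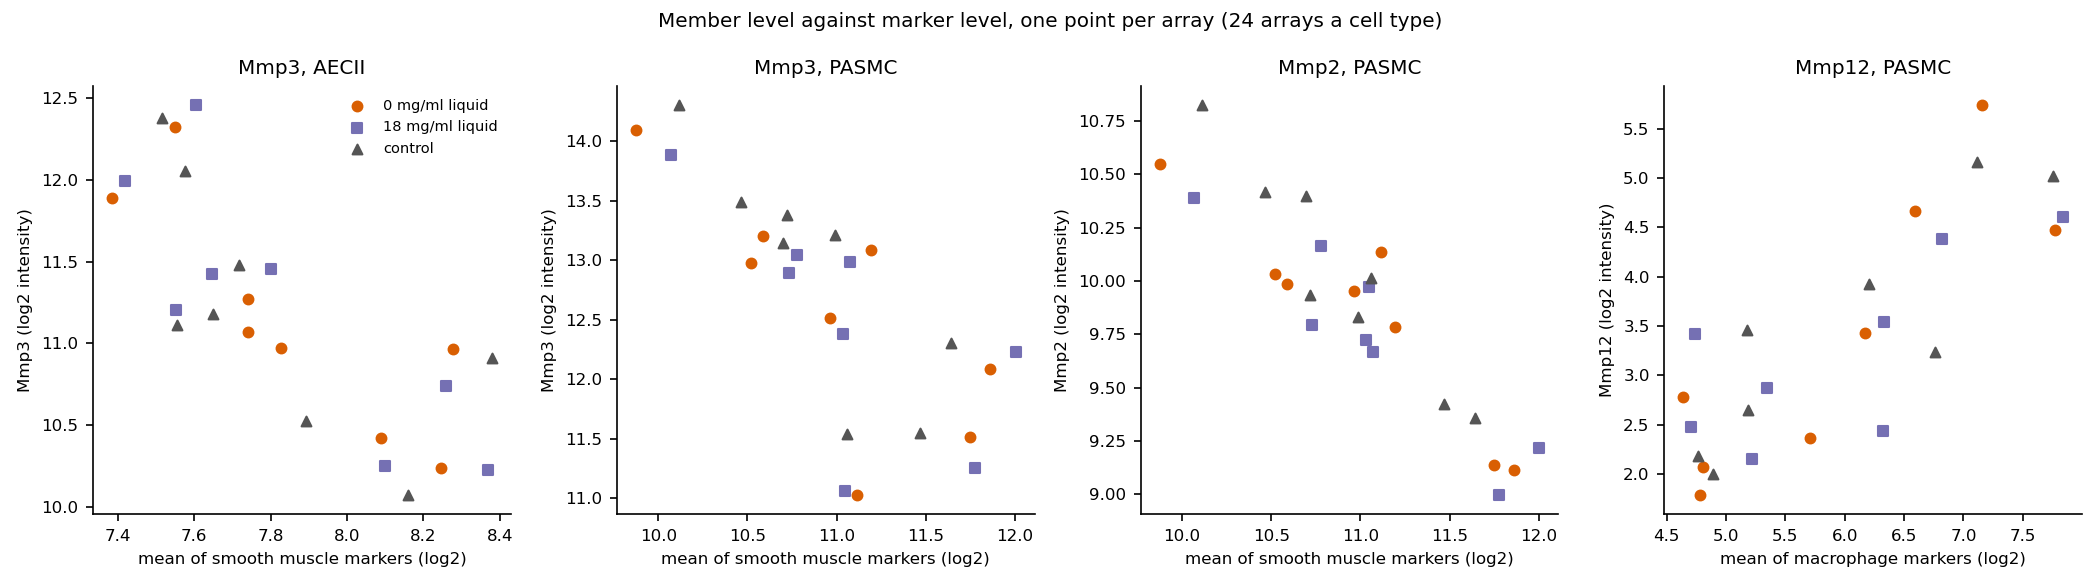
Log2 normalised intensity of a gene (vertical) against the mean log2 intensity of a marker list (horizontal), 1 point per array, with the 3 conditions by shape and colour. Points slope downward for Mmp3 against the smooth muscle markers in AECII and in PASMC and for Mmp2 against them in PASMC, and upward for Mmp12 against the macrophage markers in PASMC, in each case with the conditions intermixed.

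Genes most like a member were named by Pearson's r over the 24 group-centred arrays of the cell type in which the member was brighter. In PASMC the nearest to Mmp2 were Fxyd1 (r = 0.96) and Chl1 (0.93), to Mmp3 the complement factor Cfb (0.97) and the kinetochore gene Spc25 (0.97), and to Mmp12 the haematopoietic phosphatase Inpp5d (0.89) and the Fc receptor chain Fcer1g (0.87). Adamts4 was closest to Igfbp5 (0.94) and Irs2 (0.91), Adamts1 to Mthfd1l (0.78) and the Notch target Hey1 (0.75), and Mmp14 to Nampt (0.79) and Mmut (0.73). Among the inhibitors, Timp1 was closest to Gapdh (0.85) and Trp53inp2 (0.81), Timp2 to Tmem14a (0.79) and Fam162a (0.79), and Timp3 to Comtd1 (0.88) and Lasp1 (0.87). Mmp9, taken in AECII, had no gene above 0.69 (Dcp2), which is the highest of 14475 values. These are descriptions, since the highest of many correlations is large by selection.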

How the data were processed

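RNA of 48 samples was hybridised to single-colour (Cy3) Agilent mouse arrays. The authors deposited log2 values, 1 per probe and array; per the submitters' processing notes limma was used, with no version or step given. Lowest value, quartiles and highest value of the deposited log2 values differ by at most 0.0126 between arrays, as after quantile normalisation, a step no source used here states. Background correction is not given in the sources used here.

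Of 62976 probes 31465 carry a gene name, brought to RefSeq symbols of GRCm38.p6 by accession (29050) or symbol (2415). Each of 20738 genes was represented by its probe with the highest mean, and tested if its mean in the fit exceeded 2.73, the 30th percentile. The genes tested numbered 14477 in AECII, 14545 in PASMC and 14775 across both. Precision is limited by the 8 arrays of a group.

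Tests used lmFit and eBayes of limma 3.58.1 in R 4.3.3, with statmod 1.5.0 for blocks, and took all 24 arrays of a cell type for extract comparisons and all 48 for cell type comparisons. Tests were two-sided and adjusted by Benjamini and Hochberg over all genes tested, with calls at an adjusted p under 0.05. The procedure was tested on simulated data. Correlations within a condition used all 40320 permutations of 8 arrays (numpy 2.4.6).

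Members, gene lists and markers were chosen with earlier results of these data known. Named were all members, up to 3 relatives and substrates per direction with the largest called difference, and the 2 genes most like each member. The smallest treatment p among relatives and Mmp1a, Mmp1b and Mmp27 were named after their values were seen. Alternatives were other filters, all probes of a gene, median centring, array weights, trended and robust fitting, a minimum fold of 2 (treat), a replicate block, other sets of arrays and leaving out each array. Leaving out the PASMC arrays with Sftpc above 6, or with fibroblast list means below 9.5, was added after the data were seen.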

Additional observations from a re-analysis of the deposited data

Results flagged for a closer look

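In 2 of 60 gene-by-group sets of 8 arrays, 1 array lay far from the other 7 by Dixon's 95% criterion, which chance exceeds in about 1 of 20 sets. Mmp14 read 9.73 on AECII Ctrl replicate 6, against 8.86 to 9.25 on the other 7 arrays of that group. Adamts4 read 3.62 on AECII 18mg replicate 1, against 4.97 to 5.88 on the others. Neither array decided a call.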

How the results depend on the processing

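No called difference of a member reversed under any alternative run. Of 107 member results, 48 changed sign somewhere, all of them values that were not called. The number of members called lower in AECII was 8 to 9 under other filters, all probes of a gene, median centring, array weights, trended fitting, and without the PASMC arrays of high Sftpc or low fibroblast markers. Requiring a fold above 2 left 5 members at 0mg, 4 at 18mg and 4 at Ctrl, with 2220, 2224 and 2192 genes in all. With only the 16 arrays compared, Mmp12 lost its call at 0mg (adjusted p = 0.0512 by limma) and gained one at 18mg (adjusted p = 0.0236).

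Counts over all genes in the extract comparisons were small and unsteady. For PASMC 18mg against Ctrl the 4 calls became 1 with no filter, 8 with the 50th percentile filter, 1 with all probes of a gene, 13 with array weights, 0 without the high-Sftpc arrays, 7 without the low-fibroblast arrays, and as few as 1 when PASMC Ctrl replicate 1 was left out. For PASMC 0mg against Ctrl the 0 calls became 1 with array weights, 1 without the low-fibroblast arrays and up to 1 when PASMC Ctrl replicate 2 was left out. The difference of responses at 18mg had 1 call with array weights and 1 without the low-fibroblast arrays. No member was among the calls of the extract comparisons under any of these.

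Replicate numbers gave no clear pairing of the arrays. Same-numbered arrays of 2 conditions had median correlations of 0.016 to 0.050 in AECII and -0.15 to 0.14 in PASMC. For arrays of different number the medians were -0.034 to -0.022 in AECII and -0.029 to 0.027 in PASMC. The highest same-number median was between PASMC 0mg and 18mg, where 5 of 8 pairs were above 0.1. At most 2 of 8 arrays correlated best with their own number. With the replicate number as a block, PASMC 18mg against Ctrl had 0 calls, and no member's call changed. Each array's best match in another condition had a median correlation of 0.17 in AECII and 0.40 in PASMC, and carried the same number in 7 and 9 of 48 cases. Without a key from arrays to mice, no test within mice was run. Signal over background limits Mmp9 and Mmp12. In PASMC Timp1 and Timp2 lay close to the top of the scale, where compression was not tested.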

Other observations

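Mmp3 in PASMC ran with genes of cell division. These genes were picked after Spc25 had come up among those most like Mmp3, so only values are given, with no test. Over 24 arrays centred by group, r with Mmp3 was 0.92 for Top2a, 0.90 for Nuf2, 0.90 for Mki67, 0.88 for Spc24 and 0.84 for Ndc80, and within single conditions it ranged from 0.87 to 0.92 for Mki67 and from 0.91 to 0.92 for Top2a. In AECII the same genes had r of 0.54 for Top2a, 0.17 for Nuf2, 0.58 for Mki67, 0.36 for Spc24 and 0.53 for Ndc80. Whether the cell types differ in this was not tested.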
